A study of Homo sapiens with 9 samples.

Results

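MAP3K8 and 9 feedback regulators of the ERK pathway were followed in RIVA cells, a diffuse large B-cell lymphoma (DLBCL) line of the activated B-cell type. The 10 genes were taken by name from the 60656 genes of the deposited count table, and each name matched 1 row. They are the kinase MAP3K8, the dual-specificity phosphatases DUSP1, DUSP2, DUSP4, DUSP5, DUSP6 and DUSP10, and the Sprouty family genes SPRY2, SPRED1 and SPRED2. RNA-seq was performed on 9 libraries in 3 groups of 3. Cells carried a doxycycline-inducible lentiviral construct that was empty (vector), encoded the truncation BCL10 S136X, or encoded the substitution BCL10 R58Q. All groups, vector included, kept their own BCL10 gene and received 200 ng/mL doxycycline for 24 h. RIVA is a single line with a BCL6 rearrangement and an activating NOTCH2 mutation. Cells induced to express wild-type BCL10 were not analysed here, so the mutation and the higher amount of BCL10 cannot be told apart. The 3 R58Q columns also carry another date in the table's header than the 6 vector and S136X columns, and this date and R58Q cannot be told apart.

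MAP3K8 encodes TPL2, a kinase that phosphorylates MEK and so feeds the ERK pathway from NF-kB-activating receptors. In resting cells TPL2 is held inactive by the p105 product of NFKB1 together with ABIN2, the product of TNIP2, and IKK releases it by triggering the breakdown of p105. BCL10 acts upstream of IKK, together with MALT1. The DUSP proteins remove phosphate from the activation loops of MAP kinases, and Sprouty and SPRED proteins restrain RAS and RAF. Many of these brakes are themselves transcribed when ERK is active, which makes them common markers of negative feedback. The libraries measure transcripts, not kinase activity or protein.

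Promoter sequence is shown for 3 genes, MAP3K8 as the member with the largest change, DUSP2 as the most abundant transcript, and DUSP1 as the 1 other member with a match to a searched motif. Windows of 250 bases upstream of annotated starts (RefSeq, GRCh38.p14) were at hand for 8 of the 10 genes, 14 windows in all, and not for DUSP4 and DUSP5. Both strands were searched for the NF-kB consensus, the AP-1 site TGANTCA, the cAMP response element TGACGTCA and the CArG box. The sequences read 5′ to 3′ on the strand of the gene, with matches in capitals. The MAP3K8 window lies upstream of the third annotated start, inside the gene, at chr10:30434396-30434645 on the plus strand. The DUSP1 window is chr5:172771196-172771445 and the DUSP2 window chr2:96145441-96145690, both on the minus strand and both directly before the first base of the gene.
MAP3K8: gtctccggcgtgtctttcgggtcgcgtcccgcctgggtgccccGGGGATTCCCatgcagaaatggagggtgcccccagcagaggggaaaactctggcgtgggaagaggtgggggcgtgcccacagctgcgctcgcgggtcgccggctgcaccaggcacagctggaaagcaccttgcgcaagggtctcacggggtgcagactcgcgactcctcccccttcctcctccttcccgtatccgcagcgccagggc
DUSP1: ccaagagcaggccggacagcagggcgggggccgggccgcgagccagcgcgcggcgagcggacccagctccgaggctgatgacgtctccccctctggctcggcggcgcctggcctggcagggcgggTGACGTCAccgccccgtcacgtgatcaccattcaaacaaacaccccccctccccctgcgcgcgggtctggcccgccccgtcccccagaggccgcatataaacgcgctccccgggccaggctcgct
DUSP2: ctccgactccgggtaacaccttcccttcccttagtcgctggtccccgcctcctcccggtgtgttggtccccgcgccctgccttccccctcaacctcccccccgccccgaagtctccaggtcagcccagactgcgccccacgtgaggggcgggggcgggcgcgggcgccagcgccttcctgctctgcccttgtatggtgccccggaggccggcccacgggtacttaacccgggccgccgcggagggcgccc
The first and second MAP3K8 windows overlap annotated exons, so only the 30 bases around each match are given, at chr10:30433982-30434011 for the NF-kB match that both windows share and at chr10:30434122-30434151 for the AP-1 match of the second.
MAP3K8 NF-kB match: ggggagacgcGGAATTTCCCagcgcggggg
MAP3K8 AP-1 match: ctcagacgccgTGAGTCAggggcagagcag
An NF-kB consensus was present in 3 of 3 MAP3K8 windows and in none of the windows of the other 7 genes, against 5.21% of all 35116 windows. That share is per window, and a share per gene to set beside 1 of 8 genes was not computed. Because the first pair of windows share a match, these are 2 distinct sites, 29 bases before the first RefSeq start and 207 bases before the third. In GENCODE release 29 the gene starts earlier, at chr10:30433937, so the first site lies inside it. AP-1 was matched in 1 member window (6.57% of all windows), the cAMP response element in 1, that of DUSP1 (1.65%), and the CArG box in 0 (1.16%). A match is only a likeness of letters and was not tested for binding.

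BCL10 was at 885 to 1268 counts in vector, 9838 to 14293 in S136X and 10117 to 10596 in R58Q, which shows its induction in both mutant groups but not which mutation a library carries. Libraries held 28047713 to 33122267 counts. All 7 B-cell markers were at or above 1 CPM (read counts scaled to library size) in every library, and the 5 myeloid markers stayed under 1 CPM, with FCGR3A at 0. Of the 6 T-cell markers, CD3D, CD3E, CD3G and CD2 had at most 9 counts, whereas CD8A (2.70 to 6.32 CPM) and TRAC (1.13 to 12.3 CPM) were present. Among activated B-cell markers IRF4, BATF, FOXP1 and TNFRSF13B were at or above 35.75 CPM in every library, whereas CCND2 was at 0 or 1 count. Of the epithelial or stromal genes, EPCAM was at 32.8 to 53.5 CPM and KRT8 at 3.054 to 7.047 CPM. COL1A1 was at 3.055 to 17.18 CPM and COL1A2 at 0.7678 to 4.953 CPM. The part of these in the results was not tested. In bulk RNA, more cells with a transcript and more of it per cell cannot be told apart.

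A gene was called changed at an adjusted p under 0.05 (edgeR quasi-likelihood test, Benjamini-Hochberg over all genes tested) and a change of at least 1.5-fold. In R58Q 7 of the 10 genes were higher than in vector, MAP3K8, DUSP1, DUSP2, DUSP4, DUSP10, SPRY2 and SPRED2, and 0 were lower. DUSP4 passed the filter on low counts only through its mutant libraries and had to differ, and a filter of 10 counts in every library, which removes it, left 6 called. Among all 15435 genes tested, 4.09% were called higher and 3.54% lower. In S136X 2 of the 10 were higher, MAP3K8 and SPRED2, and 0 lower, against 2.05% higher and 1.82% lower of 15530 genes. No member was lower even at an unadjusted p under 0.05 (0 in each comparison), and DESeq2 and limma-voom called 7 members in R58Q and 3 and 2 in S136X, all higher. With library totals alone as scaling, in place of trimmed means, the share of all called genes that were higher moved from 53.1% to 41.1% in S136X and from 53.7% to 42.6% in R58Q, and the member counts stayed at 2 and 7. The median log2 fold change of the members was 0.57 in S136X and 0.88 in R58Q, where the median of all genes tested was -0.02 and -0.03. The vector libraries are common to these contrasts, so the pair are not independent. All 3 mutant libraries lay above all 3 vector libraries for 6 members in S136X and 8 in R58Q, against 16.0% and 21.1% of all genes. DUSP4, which had to differ, is among the members in both counts and in both medians.

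**Figure D1:**
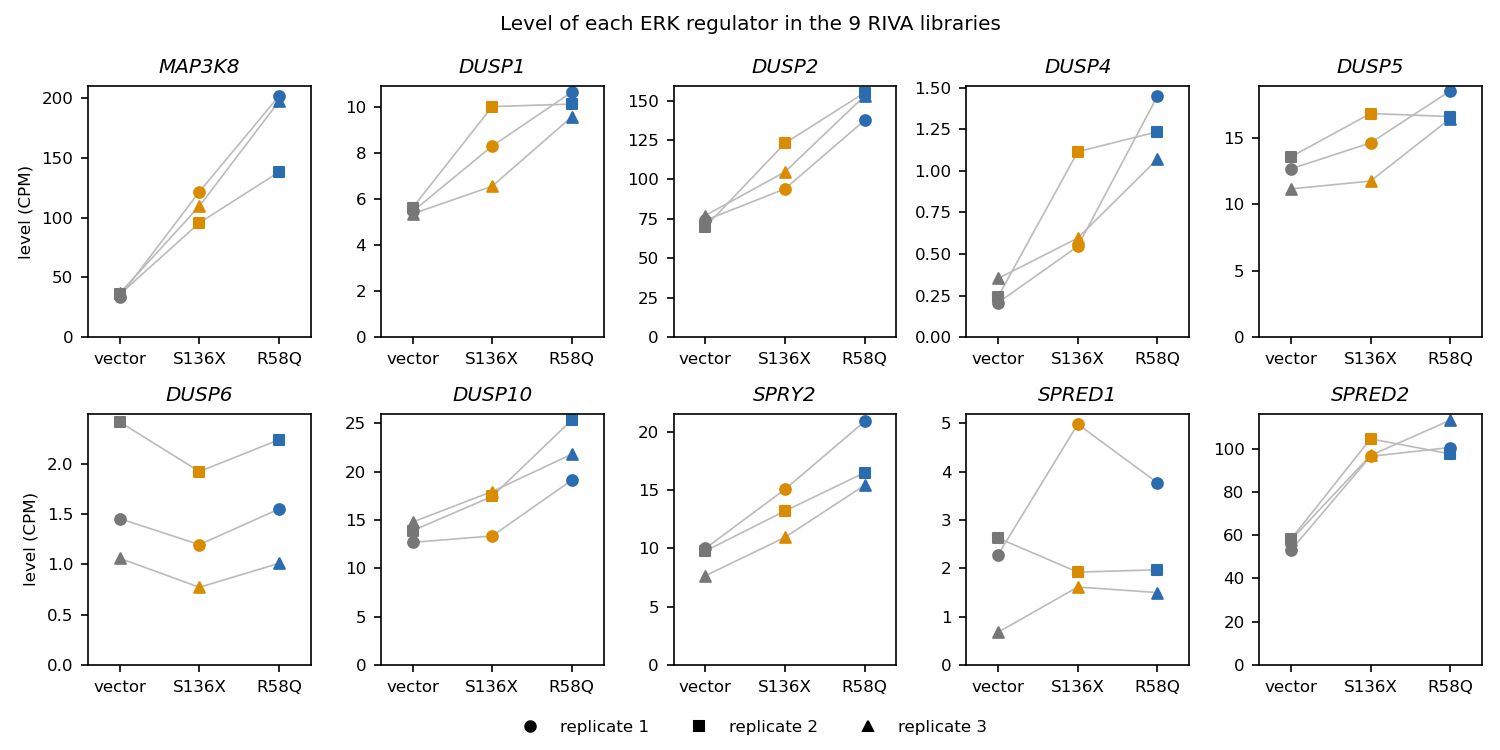
Level of each gene in CPM (y axis, from 0) in the 9 libraries, by group (x axis and colour), with the marker shape giving the replicate number and grey lines joining libraries of the same number. MAP3K8 climbs from 34.0 to 36.7 CPM in vector to 138 to 202 CPM in R58Q, whereas DUSP6 keeps the same order of replicate numbers in each group.

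MAP3K8 showed the clearest change. Its level was 34.0, 35.9 and 36.7 CPM in the vector libraries, 122, 95.7 and 110 CPM in S136X, and 202, 138 and 197 CPM in R58Q. The 3 groups did not overlap, and R58Q replicate 2 was the lowest of its group. The rise was 3.07-fold in S136X (log2 1.62, SE 0.0919, adjusted p = 5.32e-05) and 5.03-fold in R58Q (log2 2.33, SE 0.139, adjusted p = 4.79e-05). It was called in each of the 14 alternative analyses for both mutants. The gene spans chr10:30434021-30461833 (hg38), and no 31-base word of its longest transcript recurs in another annotated gene.

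DUSP2 (chr2:96143169-96145440), an inducible nuclear phosphatase of ERK and p38 found mainly in leukocytes, was at 74.1, 70.0 and 77.1 CPM in vector. It was at 94.0, 123 and 105 CPM in S136X and at 138, 155 and 153 CPM in R58Q. Again the 3 groups did not overlap. It rose 2.01-fold in R58Q (log2 1.01, SE 0.0687, adjusted p = 8.41e-05). In S136X the difference passed the p threshold but was 1.45-fold (log2 0.54, adjusted p = 0.011), just under the fold required. It was over that fold without vector replicate 3 (log2 0.59, adjusted p = 0.0244) and without S136X replicate 1 (log2 0.63, adjusted p = 0.00266). The remaining 12 of 14 alternatives did not call it, and the adjusted p reached 0.0659.

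DUSP1 (chr5:172768096-172771195), the broad inducible nuclear phosphatase that acts on p38, JNK and ERK, was at 5.46, 5.62 and 5.35 CPM in vector. The S136X libraries were at 8.30, 10.01 and 6.56 CPM, and the R58Q libraries at 10.6, 10.1 and 9.57 CPM. Both mutants lay wholly above vector, and S136X spread more widely than R58Q. The gene rose 1.84-fold in R58Q (log2 0.88, SE 0.110, adjusted p = 0.00164). In S136X the value was 1.51-fold and missed the threshold (log2 0.60, SE 0.165, adjusted p = 0.0532). It was called with DESeq2 (adjusted p = 0.0125), with no filter on low counts (0.0155), with all 9 libraries in one fit (0.0276) and without S136X replicate 3 (log2 0.75, adjusted p = 0.034), and under the block it passed the p threshold (0.0105) but not the fold. The remaining 10 of 14 alternatives did not call it, and the adjusted p reached 0.153.

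DUSP4, a close relative of DUSP1 in the nucleus, was scarce. It had 7, 8 and 12 counts in vector, 16, 36 and 17 in S136X, and 43, 37 and 35 in R58Q. S136X replicate 2 alone reached the R58Q range. DUSP4 rose 4.59-fold in R58Q (log2 2.20, SE 0.294, adjusted p = 0.0023). In S136X it was 2.80-fold with an adjusted p = 0.0503 (log2 1.48, SE 0.401). The S136X change was called with the replicate number as a block (log2 1.45, adjusted p = 0.0203) and without S136X replicate 1 (log2 1.67, adjusted p = 0.0415). Of 13 alternatives 4 called it and 9 did not, and the adjusted p reached 0.173. These counts are low enough that the interval of the R58Q fold ran from 2.88 to 7.32. DUSP4 passed the filter on low counts only through its mutant libraries and had to differ, so its calls carry no weight as tests.

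DUSP5 (chr10:110497907-110511533), a nuclear phosphatase specific to ERK, was at 12.7, 13.6 and 11.2 CPM in vector, 14.6, 16.8 and 11.7 CPM in S136X, and 18.5, 16.6 and 16.4 CPM in R58Q. S136X overlapped vector and R58Q did not. The R58Q difference passed the p threshold at 1.38-fold, below the fold required (log2 0.46, SE 0.105, adjusted p = 0.0182). The S136X difference was 1.16-fold (adjusted p = 0.39, 95% interval 0.922 to 1.45). Only 0.673% of the 31-base words of its transcript recur in another gene, mostly in the pseudogene DUSP5P1.

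DUSP6 (chr12:89347235-89352501), the cytoplasmic phosphatase of ERK and a widely used readout of ERK activity, was not called in either mutant. Its counts were 49, 79 and 36 in vector, 35, 62 and 22 in S136X, and 46, 67 and 33 in R58Q. Replicate 2 was the highest and replicate 3 the lowest in all 3 groups, and the groups overlapped. Against the library of the same number, S136X was lower than vector in 3 of 3 pairs (log2 CPM -0.27, -0.32 and -0.43) and R58Q was above S136X in 3 of 3, while R58Q against vector was positive in 1 of 3. The fold was 0.796 in S136X (adjusted p = 0.636, 95% interval 0.431 to 1.47) and 0.971 in R58Q (adjusted p = 0.946, 95% interval 0.539 to 1.75). The block narrowed these intervals to log2 -0.82 to 0.12 in S136X (adjusted p = 0.265) and -0.47 to 0.40 in R58Q (adjusted p = 0.904), and changes inside them were not detectable. An antisense gene, named AC024909.1 in the table and AC024909.2 in GENCODE release 29 under the same Ensembl identifier, shares 36.7% of the 31-base words of the DUSP6 transcript and had 0 to 2 counts. Whether reads were assigned by strand is not given in the sources used here, so the DUSP6 counts are uncertain.

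DUSP10 (chr1:221701424-221742089) acts on JNK and p38 rather than ERK. It was at 12.7, 13.9 and 14.8 CPM in vector, 13.4, 17.4 and 18.0 CPM in S136X, and 19.1, 25.4 and 21.8 CPM in R58Q. R58Q lay above the other groups, and S136X replicate 1 fell inside the vector range. DUSP10 rose 1.60-fold in R58Q (log2 0.68, SE 0.119, adjusted p = 0.00679). This call rested on R58Q replicate 2, without which the change fell below the fold required (log2 0.57, adjusted p = 0.0157). In S136X the difference was 1.18-fold (adjusted p = 0.283, 95% interval 0.960 to 1.44).

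SPRY2 (chr13:80335976-80341126), a Sprouty protein that dampens receptor tyrosine kinase signals to RAS, was at 9.995, 9.77 and 7.65 CPM in vector. It was at 15.1, 13.2 and 10.9 CPM in S136X and 20.9, 16.5 and 15.4 CPM in R58Q. The 3 groups did not overlap, and within each group replicate 1 was highest and replicate 3 lowest. SPRY2 rose 1.92-fold in R58Q (log2 0.94, SE 0.151, adjusted p = 0.00474). The S136X value of 1.43-fold was not called (log2 0.52, SE 0.153, adjusted p = 0.0674). Under the replicate block it passed the p threshold but not the fold (adjusted p = 0.00332).

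SPRED2 (chr2:65310851-65432637), which binds RAS-pathway proteins at the membrane and blocks activation of RAF, was at 53.1, 58.1 and 57.7 CPM in vector, 96.4, 105 and 96.9 CPM in S136X, and 101, 97.6 and 113 CPM in R58Q. Both mutants sat far above vector and overlapped each other. The rise was 1.76-fold in S136X (log2 0.82, SE 0.0652, adjusted p = 0.000285) and 1.84-fold in R58Q (log2 0.88, SE 0.0745, adjusted p = 0.00025). Each was called in all 14 alternatives.

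SPRED1 (chr15:38252836-38357249), its relative, behaved otherwise. It had 77, 86 and 23 counts in vector, 146, 62 and 46 in S136X, and 112, 59 and 49 in R58Q. Against the vector library of the same number, both mutants were higher for numbers 1 and 3 and lower for number 2. No change was called in S136X (log2 0.61, SE 0.534, adjusted p = 0.513) or R58Q (log2 0.37, SE 0.492, adjusted p = 0.629), and the sign turned when single libraries were left out. The intervals are wide, 0.657 to 3.53-fold in S136X and 0.592 to 2.82-fold in R58Q, so these data bound the change of SPRED1 only loosely.

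**Figure D2:**
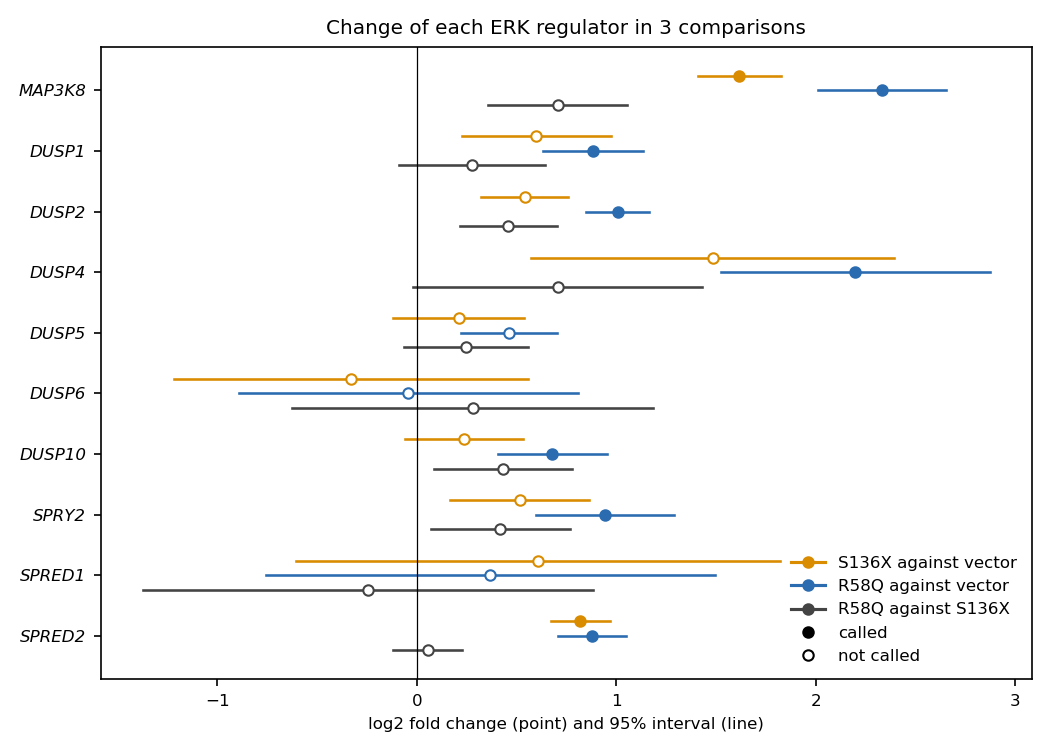
Log2 fold change (points) and 95% interval (lines) of each gene for S136X against vector, R58Q against vector and R58Q against S136X, with filled points for called changes. MAP3K8 and SPRED2 are filled in both mutants, 5 more genes are filled in R58Q, and the lines of DUSP6 and SPRED1 cross 0 in every comparison.

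S136X and R58Q were next compared directly. Of the 10 genes 0 were called by edgeR, with 0 at an adjusted p under 0.05 and 4 at an unadjusted p under 0.05, and the background was 0.270% of 15195 genes called higher in R58Q and 0.165% lower. The 5 genes called in R58Q and not in S136X are therefore not shown to differ between the mutants. All 3 R58Q libraries were above all 3 S136X libraries for MAP3K8, DUSP2, DUSP10 and SPRY2, that is for 4 of 10 against 9.45% of all genes. MAP3K8 was 1.63-fold higher in R58Q (log2 0.71, SE 0.150, 95% interval 0.36 to 1.06) with an adjusted p = 0.106.

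Libraries of the same number deviated together from their group means. When this number entered the fit as a block, MAP3K8 was called higher in R58Q than in S136X (log2 0.69, SE 0.0511, adjusted p = 1.38e-08). It was the 1 member called there, in a fit that called 1.36% of all genes higher. MAP3K8 was also called with DESeq2 (adjusted p = 0.000289), though not with limma-voom, and without R58Q replicate 2 (log2 0.86, adjusted p = 0.0171). Leaving out any other single library did not give a call. Of the 14 alternatives 5 called it and 9 did not, and the adjusted p reached 0.315. DUSP2, DUSP10 and SPRY2 passed the p threshold with the block, at adjusted p = 1.13e-06, 0.000232 and 0.000466, but their log2 differences of 0.47, 0.44 and 0.42 were below the fold required. SPRED2 had a log2 difference of 0.05 without the block (95% interval -0.12 to 0.23, adjusted p = 0.886) and 0.05 with it (-0.06 to 0.16, adjusted p = 0.58). In the S136X comparison the block raised the share of all genes called higher to 2.90% and the members called to 3, by adding DUSP4, which had to differ.

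The genes differed widely in level. Levels were compared as CPM per kilobase of annotated exon (GENCODE release 29), since longer transcripts yield more reads. In vector DUSP2 stood highest at 38.2 ± 1.86 (SD, n = 3), followed by SPRED2 at 10.9 ± 0.545 and MAP3K8 at 9.87 ± 0.390. DUSP5, DUSP10, SPRY2 and DUSP1 ranged from 4.76 down to 2.71, with overlap between DUSP5 and DUSP10 and between SPRY2 and DUSP1. DUSP6 (0.354 ± 0.150) and SPRED1 (0.225 ± 0.126) overlapped each other, and DUSP4 was lowest at 0.0370 ± 0.0104. In both mutants MAP3K8 passed SPRED2 to stand second, at 30.3 ± 3.63 in S136X and 49.7 ± 9.87 in R58Q.

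**Figure D3:**
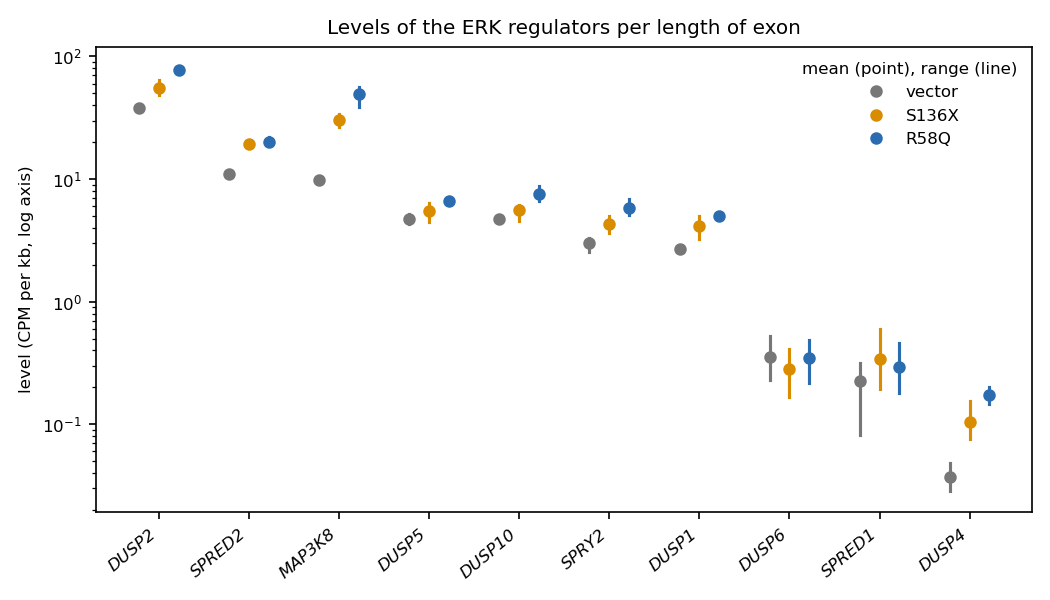
Level of each gene in CPM per kilobase of exon (y axis, log scale), ordered by the vector mean, with points for the mean and lines for the lowest to highest of 3 libraries per group. DUSP2 is highest in every group, MAP3K8 moves above SPRED2 in both mutants, and DUSP4 stays lowest while rising in R58Q.

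Among the 6 DUSP members, DUSP2 made up most of the transcripts. Per kilobase it was 75.2% ± 1.76 (SD, n = 3) of the summed level of the 6 DUSP genes in vector, 78.1% ± 1.2 in S136X and 79.6% ± 1.11 in R58Q. The summed level was 50.8 ± 1.34 CPM per kilobase in vector, 71.1 ± 9.45 in S136X and 96.5 ± 5.31 in R58Q, with no overlap between groups. For the share and the sum, each mutant gave p = 0.1 against vector in an exact two-sided permutation test, the smallest p that 3 against 3 allows. The sum leaves out phosphatases that are not members, such as DUSP22 and PTPN7. Their vector means of 176 and 98.3 CPM are not divided by length, so they cannot be set beside the sum.

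The transcripts of the proteins that hold TPL2 moved too. NFKB1 rose 1.76-fold in S136X (adjusted p = 0.000265) and 2.25-fold in R58Q (adjusted p = 4.56e-05), and TNIP2 rose 1.59-fold (adjusted p = 0.00921) and 2.55-fold (adjusted p = 7.52e-05). Both are among the 5 genes listed as TPL2 partners and IKK, of which 2 were called higher and 0 lower in each mutant. Among all genes tested, 2.05% were called higher and 1.82% lower in S136X, and 4.09% and 3.54% in R58Q. The list median was log2 0.17 in S136X and 0.32 in R58Q. The other members of that list, the IKK subunits CHUK, IKBKB and IKBKG, were not called. CHUK passed the p threshold but not the fold in R58Q (log2 0.32, adjusted p = 0.0125). MAP3K8 changed more than NFKB1. Per kilobase the ratio of MAP3K8 to NFKB1 was 0.341 ± 0.0144 (SD, n = 3) in vector, 0.598 ± 0.104 in S136X and 0.758 ± 0.116 in R58Q, with both mutants wholly above vector (exact two-sided permutation p = 0.1, the smallest possible). The ratio of MAP3K8 to TNIP2 was 1.37 ± 0.0861, 2.70 ± 0.695 and 2.70 ± 0.493, likewise above vector in both mutants (exact permutation p = 0.1), and the mutants overlapped each other. With the replicate number as a block, TNIP2 was called higher in R58Q than in S136X (log2 0.68, adjusted p = 3.05e-07). Without the block it was not (log2 0.67, adjusted p = 0.0578).

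**Figure D4:**
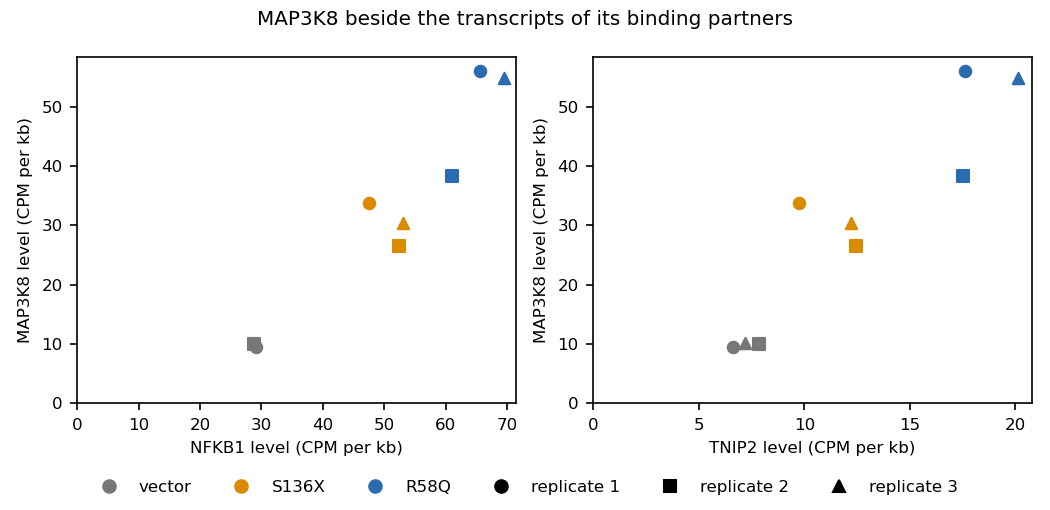
MAP3K8 level (y axis) against the NFKB1 level (left, x axis) and TNIP2 level (right, x axis), all in CPM per kilobase of exon, 1 point per library with colour for the group and shape for the replicate number. Vector libraries sit near 9.87 for MAP3K8, and R58Q replicate 2 lies below the other R58Q libraries in MAP3K8.

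The rest of the pathway was described with lists of genes by role, whose counts are to be read against the 2.05% (S136X) and 4.09% (R58Q) of all genes called higher and the 1.82% and 3.54% called lower. Of 11 ERK output genes tested, which are transcribed in response to ERK in many cells, 2 were called higher in S136X and 5 in R58Q, and 0 lower in either. The list medians were log2 0.56 and 0.93. FOSL1, an AP-1 subunit, rose 2.88-fold in S136X (adjusted p = 0.00746) and 3.08-fold in R58Q (adjusted p = 0.00534). The early response gene IER3 rose 1.72-fold (adjusted p = 0.0111) and 2.49-fold (adjusted p = 0.000747). In R58Q the receptor EPHA4 and the ETS factors ETV4 and ETV5 were also called, at log2 1.11, 0.97 and 0.93, ETV5 being named after its value was seen as the remaining called gene. With the block, EPHA2, EPHA4 and FOS were added in S136X, for 5 called (log2 0.99, 0.78 and 0.60) where 2.90% of all genes were called higher. In R58Q the block added EPHA2, for 6 called (log2 1.20, adjusted p = 0.00102, against 0.0554 without it). That fit called 740 of 15435 genes higher, against 632 without the block. DESeq2 and limma-voom likewise called 6 genes of the list. Without vector replicate 2 the S136X count was 1, and without vector replicate 3 the R58Q count was 3. EGR1, MYC and PHLDA1, named after their values were seen, were not called in either mutant. They were at log2 0.56, 0.11 and -0.42 in S136X and 0.07, -0.03 and -0.23 in R58Q. With the block, EGR1 (log2 0.55, adjusted p = 0.00993) and PHLDA1 (log2 -0.40, adjusted p = 0.0309) passed the p threshold in S136X but not the fold.

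Among 12 other MAP kinase phosphatases tested, 2 were called higher in S136X, 3 in R58Q, and 0 lower, with medians of log2 0.09 and 0.23. DUSP16 and DUSP8, both phosphatases of JNK and p38, rose in S136X (log2 0.73 and 0.80, adjusted p = 0.0153 and 0.027) and in R58Q (log2 1.28 for each, adjusted p = 0.000747 and 0.00255). The S136X count fell to 0 without vector replicate 2 and to 1 without vector replicate 1, S136X replicate 2 or S136X replicate 3. DUSP22 was called in R58Q (log2 0.68, adjusted p = 0.00056).

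Of 20 RAS-RAF-MEK-ERK core genes, 1 was called higher in S136X and 2 in R58Q, and 0 lower, with medians of log2 0.06 and 0.11, so that the counts of 1 and 2 lie near the share over all genes. RASGRP1, an exchange factor that loads RAS with GTP, rose 2.50-fold in S136X (adjusted p = 0.0136) and 2.91-fold in R58Q (adjusted p = 0.00534). Its relative RASGRP3 rose in R58Q (log2 1.18, adjusted p = 0.0157), though not without R58Q replicate 3 (adjusted p = 0.0542), and in S136X it was called with the block (log2 0.89, adjusted p = 9.63e-05) but not without it (adjusted p = 0.0556). The third of these factors, RASGRP2, lay the other way and passed the p threshold but not the fold (log2 -0.54, adjusted p = 0.00754 in S136X and log2 -0.51, adjusted p = 0.0224 in R58Q), and 1 gene of the list was called lower in S136X with library totals alone and without S136X replicate 2, and in R58Q without R58Q replicate 2. RASGRP2 was named after its values were seen. Of 13 other Sprouty, SPRED and RAS brakes tested, 0 were called in either mutant by edgeR, DESeq2 or limma-voom, with medians of log2 -0.14 and -0.15. At an adjusted p under 0.05 but less than 1.5-fold, 1 was lower in S136X (RASAL1, log2 -0.53, adjusted p = 0.00571), and 1 was higher (NF1, log2 0.29, adjusted p = 0.0268) and 2 were lower in R58Q (RASAL1, log2 -0.53, adjusted p = 0.0155, and RASA3, log2 -0.43, adjusted p = 0.00376). All 3 encode RAS GTPase-activating proteins and were named after their values were seen. In edgeR 1 brake was called lower in both mutants with library totals alone, in S136X also without replicate 1, and in R58Q also without replicate 1 or with upper-quartile scaling. At an unadjusted p under 0.05, 1 was higher and 2 were lower in S136X, and 1 was higher and 3 were lower in R58Q. SPRY4, a frequent ERK target, had 0 to 4 counts and was not tested.

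Of 11 JNK and p38 kinases 0 were called in either mutant by any of these tools (medians of log2 0.00 and -0.04), with 0 in S136X and 1 in R58Q at an unadjusted p under 0.05. Among the other MAP3K kinases, 0 were called higher and 1 lower of 15 tested in S136X and of 14 in R58Q. That gene was MAP3K12, a kinase upstream of JNK, which fell by 0.84 on the log2 scale in S136X (adjusted p = 0.0131) and by 0.91 in R58Q (adjusted p = 0.0226). Its call was lost without vector replicate 2 in both comparisons (adjusted p = 0.0683 and 0.0835), and in R58Q also without vector replicate 1 or 3. MAP3K14 was higher and passed the p threshold but not the fold in S136X (log2 0.57, adjusted p = 0.00964) and R58Q (log2 0.34, adjusted p = 0.015). MAP3K9 was lower and did so in R58Q (log2 -0.35, adjusted p = 0.025). Both were named after their values were seen. In the direct comparison of the mutants 0 genes of these 7 lists were called by edgeR without the block or by limma-voom, 1 (TNIP2) by DESeq2, and 15 entries had an unadjusted p under 0.05. With the block, MAPK10, a JNK gene at 6 to 44 counts, was called lower in R58Q (log2 -1.09, adjusted p = 0.0175) beside TNIP2. That fit called 446 of 15195 genes. The mean of MAPK10 was 0.927 CPM (SD 0.3) in S136X and 0.437 CPM (SD 0.221) in R58Q. At these values its R58Q libraries cannot all reach the minimum count of the filter, whereas its S136X libraries do. MAPK10 therefore passed the filter only through S136X and had to differ, so its call carries no weight as a test.

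**Figure D5:**
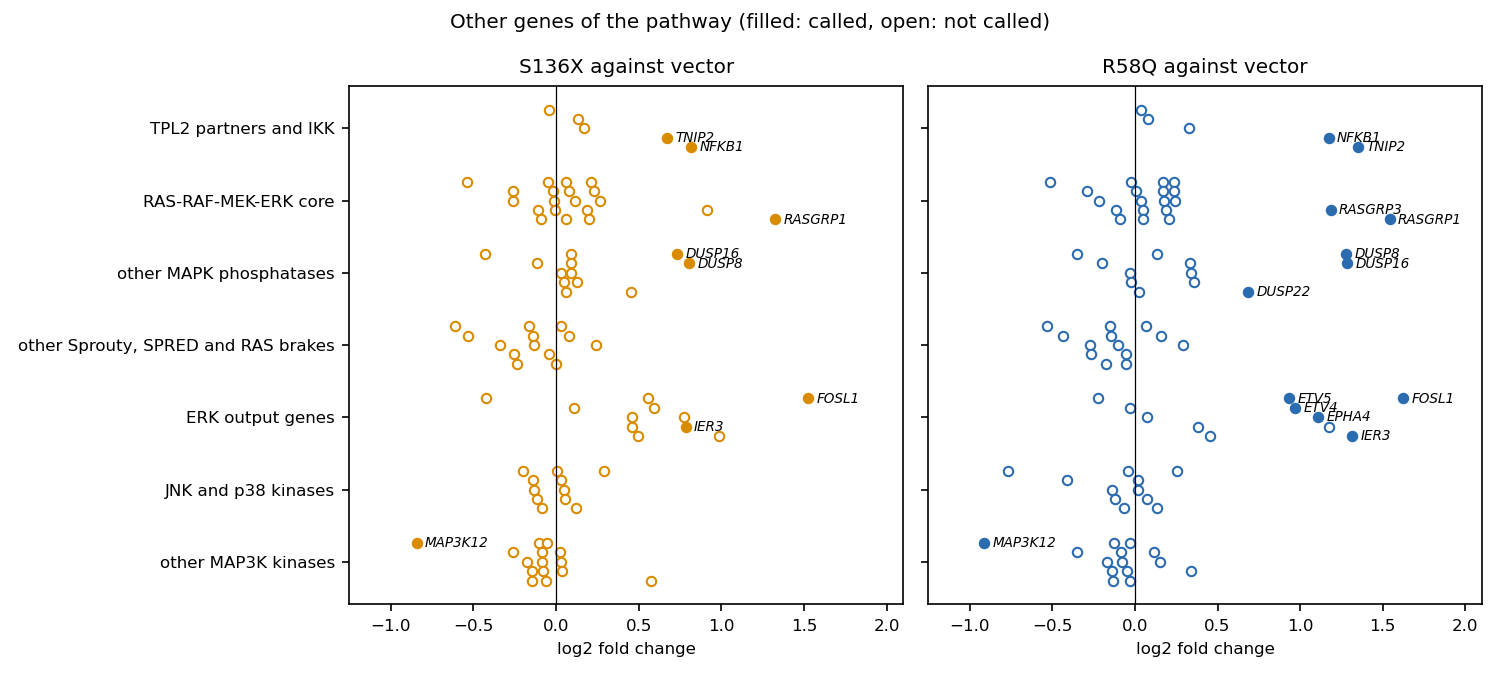
Log2 fold change (x axis) of each tested gene in 7 pathway lists (rows) for S136X (left) and R58Q (right) against vector, with called genes filled and named. Called points lie to the right of 0 in the lists of TPL2 partners, ERK core, phosphatases and ERK output, and MAP3K12 is the 1 called point to the left.

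The genes whose pattern over the 9 libraries was most like that of MAP3K8 were found by Pearson correlation of log2 CPM among 15860 genes. They were the nucleobase transporter SLC43A3 (r = 0.998), the hyaluronan receptor CD44 (r = 0.998), DUSP22 (r = 0.997), the kinase subunit PIK3CD (r = 0.995) and TRIP10 (r = 0.995). The nearest to DUSP2 were TRIM69 (r = 0.994), SOCS1 (r = 0.992), B3GNT2 (r = 0.991) and JUNB (r = 0.990). The 9 points of each correlation fall into 3 groups, so these values describe which genes share the order of groups and carry no test. CD44 had a larger difference than MAP3K8, at log2 1.93 in S136X and 2.83 in R58Q, and DUSP22 a smaller one, at 0.45 and 0.68.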

How the data were processed

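RIVA cells with empty vector, BCL10 S136X or BCL10 R58Q (3 biological replicates each) were profiled by RNA-seq. The authors deposited raw read counts per gene, made from poly(A)-selected RNA with reads of 2 runs combined. The submitters' processing notes name cutadapt, STAR, Picard and hg38 without versions, and the counting program, annotation and use of strand are not given in the sources used here. A second set of columns holds the authors' normalized counts and was not used. The labels give the doxycycline dose in differing units, and that of the protocol is printed. 0 columns lacked a sample.

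Counts were tested in edgeR 4.0.16 (R 4.3.3) by the quasi-likelihood test on the 6 libraries of each comparison, after filterByExpr (minimum count 10, minimum total 15) and TMM scaling, with Benjamini-Hochberg adjustment. Scripts were tested on simulated data. CPM uses TMM factors over all 9 libraries, and log2 CPM a prior count of 2. Exon lengths and 31-base words come from GENCODE release 29, whose gene ends differ slightly from the table's for 9 of the members. All 10 members passed the filter in each comparison. Replicates within groups differed by more than read sampling gives (chi-square 7.91 to 25.6 for each degree of freedom). The correlation of deviations from group means was 0.143 to 0.626 for 9 of 9 pairs of the same number. For the 18 pairs of different numbers it was -0.459 to 0.169 (median -0.251), with 2 above 0.1, so the ranges overlap. Deviations cancel out within a group, so the values for different numbers are not independent of those for the same number. The pairing comes from this check of the data and not from the labels, and the blocked fit stands beside a result whose call it alters. Alternatives were DESeq2 1.42.0, limma-voom (limma 3.58.1), other scalings and filters, all 9 libraries in one fit, no fold threshold, and leaving out each library.

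The members and lists were chosen with earlier results of these data known. Every member is named. Of the pathway lists, up to 4 called genes per list and comparison with the lowest adjusted p are named, and the 5 genes most correlated with MAP3K8 and with DUSP2, the member next in adjusted p in R58Q. 1 gene named by this rule is not reported here.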

Additional observations from a re-analysis of the deposited data

How the results depend on the processing

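MAP3K8 and SPRED2 in both mutants, and DUSP1, DUSP2 and SPRY2 in R58Q, kept direction and call in all 14 alternatives. DUSP4 in R58Q kept them in the 13 that test it, but it had to differ, so this does not show stability. The filter of 10 counts in every library removed it. Members called in S136X went from 2 to 4 with no filter on low counts, to 4 with all 9 libraries in one fit, and to 2 to 4 with 1 library left out. Genes called in S136X went from 601 to 934 with no filter, 1014 with the replicate block, 1574 with no fold threshold, and 279 (without vector replicate 2) to 705 with 1 library left out. Genes called in R58Q went from 1178 to 3243 with no fold threshold and 719 (without vector replicate 2) to 1248 with 1 left out. Between the mutants, members called went from 0 to 1 with DESeq2, no filter, all 9 libraries and the replicate block, and to 0 to 1 with 1 left out. Genes called there went from 66 to 146 with DESeq2, 165 with no filter, 114 with all 9 libraries, 446 with the replicate block, and 5 (without S136X replicate 3) to 63 with 1 left out. Signs turned with 1 library left out for DUSP6, at log2 -0.721 to 0.0559 in S136X, -0.361 to 0.343 in R58Q and -0.0407 to 0.686 between the mutants, for SPRED1, at -0.0700 to 0.936, -0.0939 to 0.697 and -0.712 to 0.431, and for SPRED2 between the mutants, at -0.0166 to 0.0970. The cause was not tested. The replicate block changed no member's call beyond DUSP4 in S136X and MAP3K8 between the mutants. Low counts, at most 146 in any library, limit DUSP4, DUSP6 and SPRED1.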
